A study of Mus musculus with 15 samples.

Results

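This account covers 37 genes of lipid metabolism in leukemia stem cells (LSC) of a mouse leukemia: 15 genes of sterol synthesis, 4 sterol sensors and regulators, 4 genes of sterol transport and storage, 4 genes of the liver X receptor (LXR) and sterol export system, and 10 genes of fatty acid synthesis, elongation and desaturation. The genes were chosen by pathway membership and matched by symbol, and all 37 were found among the 23359 gene entries of the deposited tables. The leukemia was a murine blast crisis chronic myeloid leukemia (bcCML) driven by the human oncogenes BCR-ABL and NUP98-HOXA9, both present in every LSC group. Leukemia cells were transplanted into recipient mice, and LSC were taken 12 days later from gonadal adipose tissue (AT), peripheral blood (BL), spleen (SPL) and bone marrow (BM). Their normal counterparts came from normal bone marrow (NBM) and are labelled with the same strain text, so the labels alone do not say whether an oncogene was carried there. Mice were female and 3 months old. There were 15 RNA-seq libraries, 3 in each of 5 groups. No sort marker is given in the labels. They also do not say if 1 mouse or several gave the 3 libraries of each group, so the spread behind the p-values may be technical.

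Cells make cholesterol from acetyl-CoA through mevalonate, squalene and lanosterol. When membrane sterol falls, the SREBP transcription factors are carried by Scap from the endoplasmic reticulum, where Insig proteins hold them back, and they switch on sterol and fatty acid synthesis genes. When oxysterols accumulate, the LXR nuclear receptors switch on export pumps such as Abca1 and Abcg1. Fatty acid synthase makes saturated fatty acids, which elongases lengthen and desaturases supply with double bonds. Macrophages are known for high sterol export capacity, and dividing cells for high demand for new membrane lipid.

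For each gene and group the authors deposited 1 pooled FPKM value (fragments counted on a gene, scaled by its length and by sequencing depth) with lower and upper bounds of 2 standard deviations each. They also deposited a Cuffdiff comparison of each pair of groups with a log2 fold, a p-value and a q-value. A gene is called here where the authors tested it and gave it a q-value below 0.05. Errors written after ± are the standard errors of the log2 fold that the deposited fold and test statistic imply. The pooled columns held 1.96e+07 estimated counts for AT, 1.95e+07 for BL, 8.96e+06 for SPL and 1.65e+07 for BM LSC, against 1.95e+07 for NBM, so SPL values rest on the fewest reads. The median log2 fold of all tested genes was -0.48 for AT over BM LSC, -0.52 for AT over SPL, -0.37 for BL over BM, -0.40 for BL over SPL, -0.46 for AT over NBM and -0.36 for BL over NBM, all 6 below 0, while the other 4 lay between -0.11 for AT over BL and 0.12 for SPL over BM. Because of these shifts member counts are also given after centring, in which the median log2 fold of all tested genes is subtracted before testing. In bulk RNA, fewer cells of a type and less RNA per cell cannot be told apart.

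Marker genes of other cells moved with the sites. The 11 macrophage and monocyte markers summed to 1.01e+03 FPKM in AT, 1.4e+03 in BL, 211 in SPL and 203 in BM LSC, against 404 in NBM. Lyz2 made up most of this sum in each group. In AT over NBM 2 of these 11 markers were called higher and 4 lower, beside 7.94% and 15.5% of all tested genes. In BL over NBM 5 were higher and 4 lower, beside 11.5% and 22.9% of all. Their median log2 folds there were -0.928 and -0.665, beside -0.458 and -0.365 over all tested genes. The 12 cell cycle markers summed to 139 FPKM in AT, 57.3 in BL, 369 in SPL and 271 in BM LSC, against 345 in NBM, so both AT and BL LSC were low. The 10 stromal markers summed to 38.0 FPKM in AT LSC and to between 1.30 and 2.97 FPKM elsewhere, with decorin (Dcn) alone at 21.0 FPKM in AT. Of the stromal markers, 7 of 8 tested were called higher in AT over BM LSC, where 7.24% of all tested genes were called higher and 15.5% lower. Among the 9 adipocyte markers, the defining genes Adipoq, Plin1 and Lep stood at 0.0304, 0.00696 and 0.00258 FPKM in AT LSC, close to 0. Cfd, Plin4, Cidec and Aqp7 were higher in AT LSC, at 0.349, 0.265, 0.263 and 0.251 FPKM, against 0, 0.00652, 0.0130 and 0.0565 in BM LSC. Of the 5 adipocyte markers tested in AT over BM LSC all had a fold above 0, with a median log2 fold of 3.58. Of these, 3 were called higher, beside 7.24% of all tested genes. One of the list, Pparg, which macrophages also express, had 5.84 FPKM in AT, 4.72 in BL, 1.25 in SPL and 0.822 in BM LSC, against 0.874 in NBM. The 10 neutrophil markers summed to 2.16e+03 FPKM in AT, 921 in BL, 427 in SPL and 540 in BM LSC, against 1.04e+03 in NBM, and the 6 erythroid markers found to 14.9, 18.5, 256, 80.3 and 22.1 in the same order. S100a8 and S100a9 made up most of the neutrophil sum in each group. In AT over BL LSC 7 of the 10 neutrophil markers had a fold below 0 and 3 above. Their median log2 fold was -0.634, beside -0.105 over all tested genes. Of the 10, 2 were called higher and 2 lower, beside 4.01% and 2.51% of all. Over the 5 groups, sums ranged from 1.5 to 21.4 for B cell and from 133 to 343 for T and NK cell markers. Nkg7 made up most of the T and NK sums. The T cell gene Cd3e had 0.210 FPKM in AT, 0.624 in BL, 1.98 in SPL and 0.415 in BM LSC, against 14.9 in NBM. Of the 7 T and NK markers, 0 were called higher and 6 lower in AT over NBM, beside 7.94% and 15.5% of all tested genes. In BM over NBM 1 was higher and 5 lower, beside 8.17% and 7.85% of all. The 8 endothelial markers summed to between 8.69 and 24.9, most of it Pecam1. Of the 7 tested in AT over BM LSC, 3 were called higher and 0 lower, beside 7.24% and 15.5% of all tested genes. The median log2 fold of the 7 was 2.58. Among them Esam had 2.49 FPKM in AT LSC, against 0.257 in BM LSC, and Cdh5 had 0.276 in AT LSC, against 0.00259 in BM LSC. All 8 stem and progenitor markers were above 0.1 FPKM in each group, with sums of 22.0 in AT, 22.9 in BL, 43.8 in SPL and 61.5 in BM LSC, against 69.5 in NBM. The part of these cells and of proliferation in the results that follow was not tested.

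**Figure D1:**
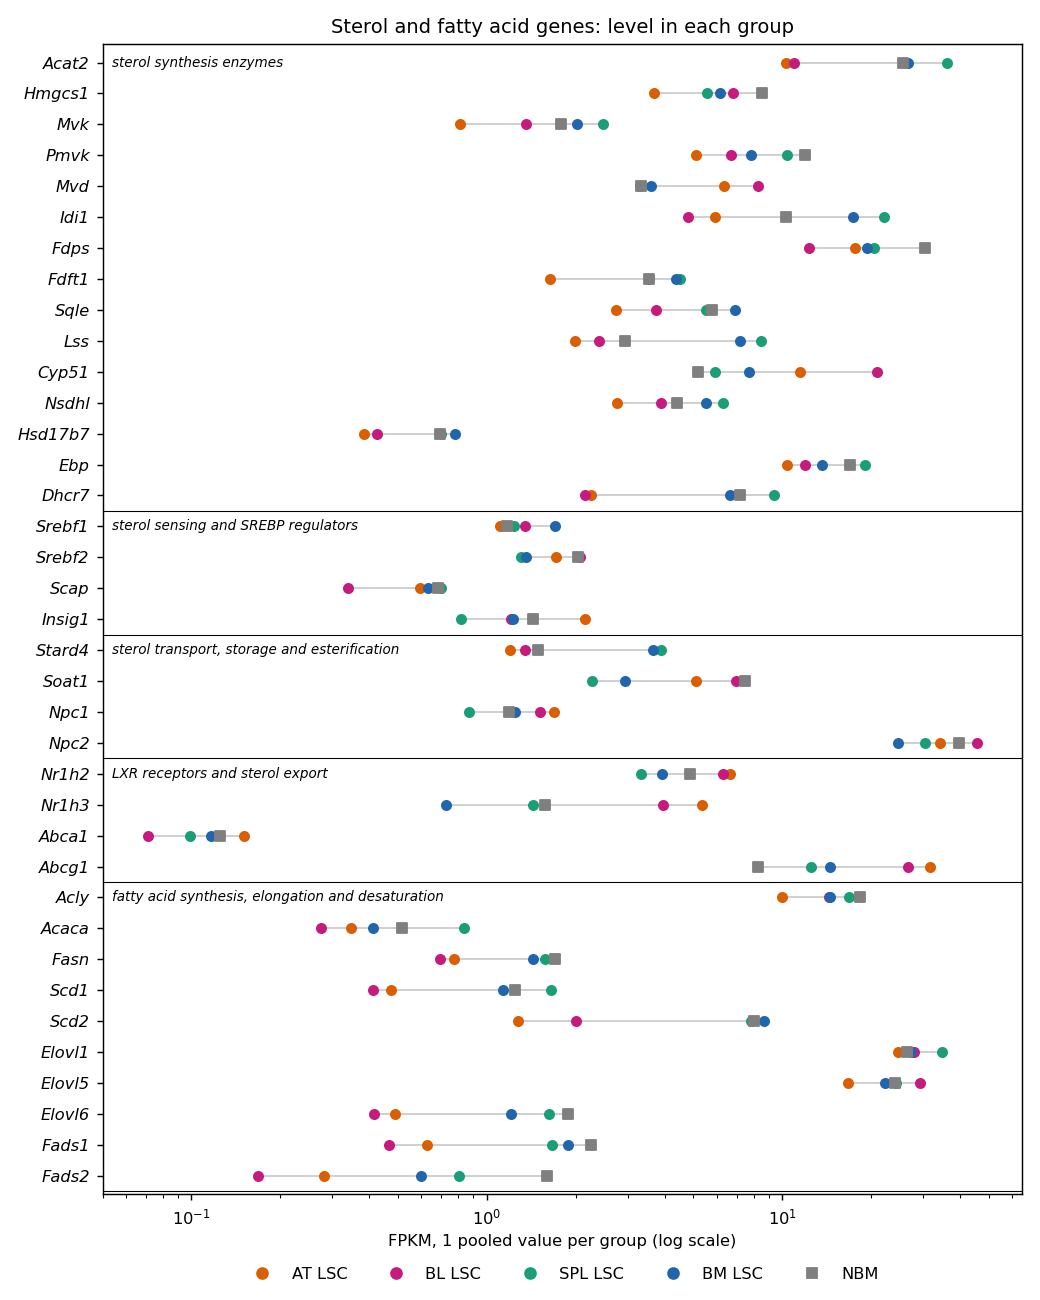
Pooled FPKM of the 37 genes (log axis) in AT, BL, SPL and BM LSC (circles) and NBM (squares), 1 point per group, with the genes of each role between the black lines. The orange AT points are leftmost for 10 of the 15 sterol synthesis enzymes and rightmost for all 4 LXR and export genes.

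On the deposited scale most sterol synthesis enzymes were lowest in AT LSC, yet the pathway did not move as a block. AT LSC held the lowest level of 10 of the 15 enzyme genes and the highest of none, and SPL LSC the highest of 8. These ranks are of uncentred FPKM, and the median log2 fold of all tested genes was also below 0 in AT over each other group. The share of all genes ranked so was not counted. In AT over BM LSC 0 of the 15 were called higher and 5 lower, beside 7.24% and 15.5% of all tested genes. After centring 1 was higher and 1 lower, beside 11.8% and 5.11%. The summed level of the 15 genes was 83.3 FPKM in AT, 100 in BL, 160 in SPL and 136 in BM LSC, against 139 in NBM. Idi1, Lss, Dhcr7 and Acat2 were lower in AT and BL LSC than in SPL and BM LSC, whereas Mvd and Cyp51 were higher in BL LSC.

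The steps from acetyl-CoA to farnesyl diphosphate came first. Acat2, which joins acetyl-CoA units at the entry of the pathway, had 10.3 FPKM in AT, 11.0 in BL, 36.2 in SPL and 26.7 in BM LSC, against 25.7 in NBM. The AT and BL values lay below the other three. It was, in the authors' deposited table, 2.6-fold lower (log2 -1.38 ± 0.44, q 0.0123) in AT than in BM LSC, 3.53-fold lower (log2 -1.82 ± 0.52, q 0.00415) in AT than in SPL LSC, 2.43-fold lower (log2 -1.28 ± 0.35, q 0.00248) in BL than in BM LSC and 3.3-fold lower (log2 -1.72 ± 0.44, q 0.00124) in BL than in SPL LSC. Against NBM it was 2.5-fold lower (log2 -1.32 ± 0.43, q 0.0147) in AT LSC and 2.34-fold lower (log2 -1.23 ± 0.34, q 0.0029) in BL LSC in the authors' deposited table. The calls between BL and the BM and SPL sites held after centring, and the other 4 did not. About 65.6% of the Acat2 transcript is 97.7% identical to Acat3, so reads may be shared between them. Hmgcs1, HMG-CoA synthase, had 3.67 FPKM in AT, 6.78 in BL, 5.56 in SPL and 6.13 in BM LSC, against 8.52 in NBM. Its only call was against NBM, where it was 2.32-fold lower (log2 -1.22 ± 0.42, q 0.0245) in AT LSC in the authors' deposited table. Mvk, mevalonate kinase, had 0.810 FPKM in AT, 1.36 in BL, 2.47 in SPL and 2.02 in BM LSC, against 1.78 in NBM, and was called only for AT against SPL LSC, 3.05-fold lower (log2 -1.61 ± 0.63, q 0.0496) in the authors' deposited table. Pmvk, the next kinase, had 5.10 FPKM in AT, 6.70 in BL, 10.3 in SPL and 7.84 in BM LSC, against 12.0 in NBM, and was called only for AT against NBM, 2.35-fold lower (log2 -1.23 ± 0.47, q 0.0423) in the authors' deposited table. None of the calls of Hmgcs1, Mvk and Pmvk held after centring. Hmgcs1 shares 557 exonic bases with Gm48342 on the opposite strand.

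Mvd, mevalonate diphosphate decarboxylase, ran the other way. It had 6.37 FPKM in AT, 8.28 in BL, 3.29 in SPL and 3.60 in BM LSC, against 3.33 in NBM, so the groups low for Acat2 were high for Mvd. In the authors' deposited table it was 2.3-fold higher (log2 1.20 ± 0.38, q 0.0119) in BL than in BM LSC, 2.51-fold higher (log2 1.33 ± 0.47, q 0.0263) in BL than in SPL LSC and 2.48-fold higher (log2 1.31 ± 0.40, q 0.00762) in BL LSC than in NBM, and all 3 calls held after centring. Its folds for AT over BM, SPL and NBM, at 0.82 ± 0.45, 0.95 ± 0.52 and 0.93 ± 0.46 in the authors' deposited table, were not called there. All 3 were called after centring, and the one over SPL also under total count scaling, in which groups are set to equal totals of estimated counts. Idi1, isopentenyl diphosphate isomerase, which acts next, again stood low in AT and BL LSC. It had 5.92 FPKM in AT, 4.78 in BL, 22.2 in SPL and 17.3 in BM LSC, against 10.3 in NBM, with both SPL and BM LSC above NBM. The authors' deposited table gave 4.64-fold lower (log2 -2.21 ± 0.44, q 1.64e-05) levels in BL than in SPL LSC, 3.62-fold lower (log2 -1.85 ± 0.35, q 5.19e-06) in BL than in BM LSC, 3.74-fold lower (log2 -1.91 ± 0.55, q 0.00436) in AT than in SPL LSC and 2.92-fold lower (log2 -1.55 ± 0.47, q 0.00876) in AT than in BM LSC. The BL calls held after centring and the AT calls did not. Against NBM, Idi1 was 2.16-fold higher (log2 1.11 ± 0.40, q 0.0321) in SPL LSC and 2.15-fold lower (log2 -1.10 ± 0.35, q 0.0131) in BL LSC in the authors' deposited table, and both calls were lost after centring. A similar transcript, Gm13502, is 100% identical to Idi1 over 22.6% of the Idi1 transcript. Fdps, which makes farnesyl diphosphate, had 17.6 FPKM in AT, 12.4 in BL, 20.5 in SPL and 19.4 in BM LSC, against 30.4 in NBM and was called only for BL over NBM, 2.46-fold lower (log2 -1.30 ± 0.34, q 0.00155) in the authors' deposited table. Annotated copies of Fdps elsewhere are up to 98.9% identical over 76.8% of its transcript, so its level is uncertain.

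The squalene and lanosterol steps held genes that ran in opposite directions. Fdft1, squalene synthase, had 1.64 FPKM in AT, 3.55 in BL, 4.50 in SPL and 4.35 in BM LSC, against 3.55 in NBM, but its fold for AT over BM LSC carried a standard error of 17.7 in the authors' deposited table. It shares 774 exonic bases with Ctsb on the opposite strand, and the sources used here do not say whether counting used strand. Its AT bounds ran from 0 to 41.8 FPKM. Fdft1 is therefore not compared singly, but it does count in the ranks, summed level and medians of the sterol enzymes. Sqle, squalene epoxidase, had 2.73 FPKM in AT, 3.74 in BL, 5.53 in SPL and 6.91 in BM LSC, against 5.79 in NBM, and only AT over BM LSC was called, 2.53-fold lower (log2 -1.34 ± 0.45, q 0.0182) in the authors' deposited table and not after centring. Lss (mm10 chr10:76531627-76562226), lanosterol synthase, which closes the sterol rings, had 1.99 FPKM in AT, 2.40 in BL, 8.47 in SPL and 7.18 in BM LSC, against 2.93 in NBM. The bounds of SPL (4.39 to 12.5) and BM LSC (4.97 to 9.39) lay wholly above those of AT (0.920 to 3.06), BL (1.43 to 3.36) and NBM (1.86 to 3.996). The authors' deposited table gave 4.25-fold lower (log2 -2.09 ± 0.52, q 0.000795) values in AT than in SPL LSC, 3.61-fold lower (log2 -1.85 ± 0.45, q 0.000507) in AT than in BM LSC, 3.54-fold lower (log2 -1.82 ± 0.45, q 0.000735) in BL than in SPL LSC and 3-fold lower (log2 -1.58 ± 0.36, q 0.000235) in BL than in BM LSC. Against NBM, Lss was 2.89-fold higher (log2 1.53 ± 0.43, q 0.00401) in SPL LSC and 2.45-fold higher (log2 1.29 ± 0.34, q 0.00187) in BM LSC in the authors' deposited table. All 6 of these Lss calls held after centring and under total count scaling. Lss shares 381 exonic bases with 4930483K19Rik on the opposite strand.

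Cyp51 (mm10 chr5:4080674-4104697), lanosterol demethylase, acts directly after Lss and stood high in BL LSC, where Lss stood low. It had 11.5 FPKM in AT, 20.9 in BL, 5.94 in SPL and 7.74 in BM LSC, against 5.18 in NBM. The BL bounds (12.1 to 29.7) lay above those of SPL (3.12 to 8.75), BM (5.45 to 10.03) and NBM (3.57 to 6.79) and overlapped those of AT LSC (5.07 to 17.9). Cyp51 was, in the authors' deposited table, 4.04-fold higher (log2 2.01 ± 0.38, q 3.13e-06) in BL LSC than in NBM, 3.52-fold higher (log2 1.82 ± 0.46, q 0.000906) in BL than in SPL LSC and 2.7-fold higher (log2 1.43 ± 0.37, q 0.00132) in BL than in BM LSC, and all 3 calls held after centring. The AT folds of Cyp51, 0.57 ± 0.46 over BM, 0.95 ± 0.53 over SPL and 1.15 ± 0.46 over NBM in the authors' deposited table, were not called there. Those over SPL and NBM were called after centring and under total count scaling, and that over BM under neither. Cyp51 shares 166 exonic bases with Akap9. Nsdhl, which takes part in removing methyl groups from the sterol ring, had 2.75 FPKM in AT, 3.88 in BL, 6.30 in SPL and 5.54 in BM LSC, against 4.40 in NBM, and Hsd17b7, the ketone reductase of the same complex, had 0.383 FPKM in AT, 0.424 in BL, 0.698 in SPL and 0.778 in BM LSC, against 0.697 in NBM. Ebp, the sterol isomerase, had 10.3 FPKM in AT, 12.0 in BL, 19.0 in SPL and 13.7 in BM LSC, against 17.0 in NBM. None of these 3 genes was called in any comparison. Dhcr7 (mm10 chr7:143823167-143848410), which completes cholesterol from 7-dehydrocholesterol, had 2.26 FPKM in AT, 2.15 in BL, 9.40 in SPL and 6.67 in BM LSC, against 7.21 in NBM. Its AT bounds (1.06 to 3.45) and BL bounds (1.30 to 3.00) lay below those of SPL (4.96 to 13.8), BM (4.61 to 8.72) and NBM (4.94 to 9.49). Dhcr7 was, in the authors' deposited table, 4.36-fold lower (log2 -2.13 ± 0.44, q 3.84e-05) in BL than in SPL LSC, 4.16-fold lower (log2 -2.06 ± 0.51, q 0.000773) in AT than in SPL LSC, 3.1-fold lower (log2 -1.63 ± 0.36, q 0.000119) in BL than in BM LSC and 2.95-fold lower (log2 -1.56 ± 0.44, q 0.00383) in AT than in BM LSC. Against NBM it was 3.35-fold lower (log2 -1.74 ± 0.36, q 3.84e-05) in BL LSC and 3.19-fold lower (log2 -1.68 ± 0.44, q 0.00181) in AT LSC in the authors' deposited table. Of these 6 calls, AT over BM alone was lost after centring.

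**Figure D2:**
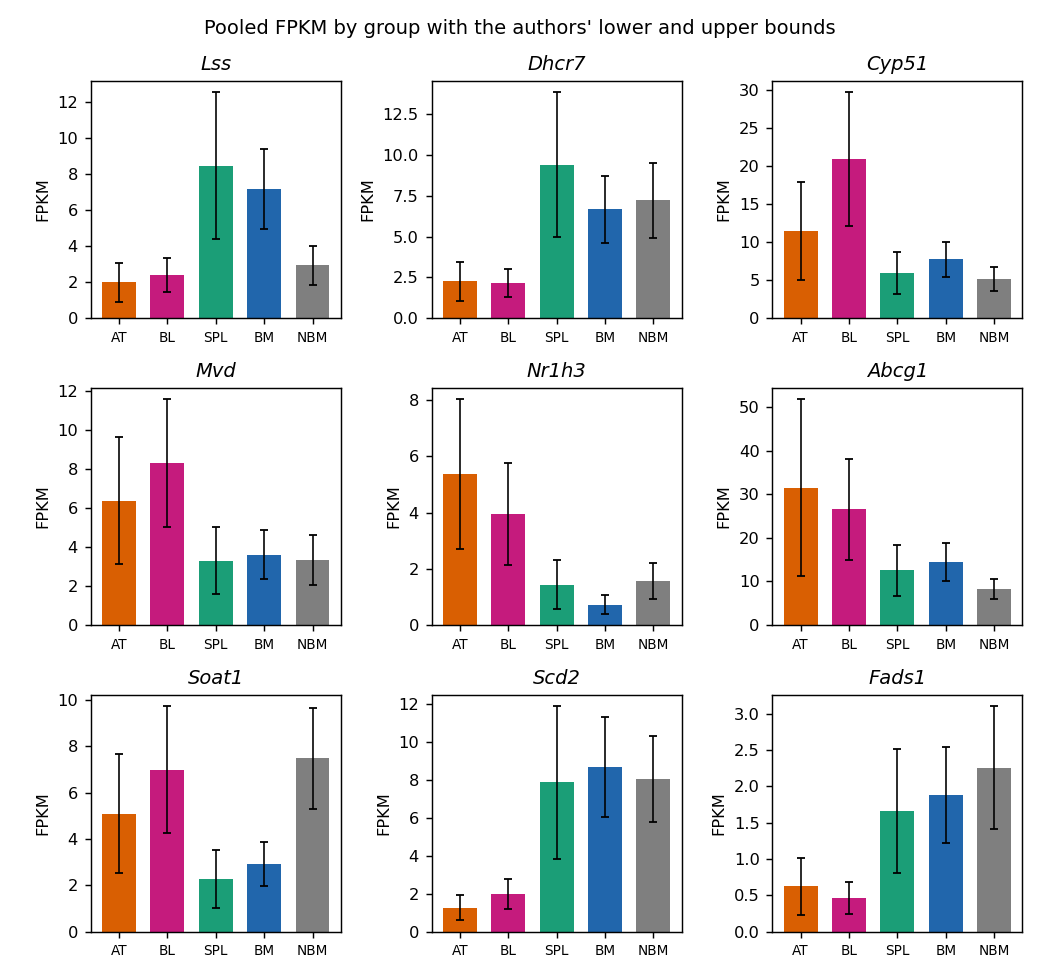
Pooled FPKM (bars, from 0) of 9 of the genes in AT, BL, SPL and BM LSC and NBM, with error bars at the authors' lower and upper bounds, 2 standard deviations each. Lss, Dhcr7, Scd2 and Fads1 are low in AT and BL, Cyp51 and Mvd are high in BL, and Nr1h3 and Abcg1 are high in AT and BL.

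The proximal promoters of Lss and Cyp51 are shown because the genes of these consecutive steps differed in direction between sites, and that of Hmgcs1 because it was the only member promoter holding the SREBP element searched for. The choice of Lss and Cyp51 was made after their values were seen. Sequences run 5′ to 3′ on the gene's strand from 250 bases before to 50 bases after the RefSeq start on GRCm38.p6, at chr13:119690101-119690400 (+) for Hmgcs1, chr10:76531355-76531654 (+) for Lss and chr5:4104648-4104947 (-) for Cyp51. Capitals mark TCACNCCAC, a form of the sterol regulatory element, and CCAAT, the NF-Y motif known to stand beside it, on either strand (CCAAT reads ATTGG on the other).
Hmgcs1: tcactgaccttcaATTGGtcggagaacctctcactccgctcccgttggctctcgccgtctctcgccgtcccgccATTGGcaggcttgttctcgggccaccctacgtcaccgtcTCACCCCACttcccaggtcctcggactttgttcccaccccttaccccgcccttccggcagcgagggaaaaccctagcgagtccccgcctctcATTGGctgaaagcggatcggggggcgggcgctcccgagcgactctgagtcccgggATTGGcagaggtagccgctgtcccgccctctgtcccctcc
Lss: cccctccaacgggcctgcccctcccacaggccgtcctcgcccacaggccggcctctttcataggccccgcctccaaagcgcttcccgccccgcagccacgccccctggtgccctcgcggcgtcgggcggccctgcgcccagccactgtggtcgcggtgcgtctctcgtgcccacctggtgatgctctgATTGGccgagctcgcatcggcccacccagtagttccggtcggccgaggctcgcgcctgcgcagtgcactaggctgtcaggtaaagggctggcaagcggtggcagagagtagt
Cyp51: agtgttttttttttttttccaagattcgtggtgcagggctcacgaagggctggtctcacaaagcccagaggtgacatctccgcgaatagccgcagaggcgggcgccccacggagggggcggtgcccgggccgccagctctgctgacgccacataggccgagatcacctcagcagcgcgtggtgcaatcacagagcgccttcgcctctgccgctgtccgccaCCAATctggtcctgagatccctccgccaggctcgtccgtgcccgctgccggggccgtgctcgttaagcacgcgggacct
The Hmgcs1 window held TCACCCCAC at -137 to -129 from the start and 4 CCAAT matches, the Lss window 1 CCAAT match at -62 to -58, and the Cyp51 window 1 at -29 to -25. Promoter windows were found for 28 of the 37 genes. TCACNCCAC was in 1 of these 28 and in 1.44% of 27025 genes' promoters of the same length. CCAAT was in 20 of 28 (71.4%), among them 11 of the 12 sterol enzyme genes with a window and 0 of the 3 LXR and export genes, and in 41.1% of all promoters. A direct repeat of GGTCA with 4 bases between, a form of the LXR element, was in 0 of 28 and in 0.0518% of all. These are matches of letters in 1 window per start and say nothing of binding.

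No sensor or regulator of SREBP activity was called. Srebf1, the SREBP gene tied mainly to fatty acid synthesis, had 1.11 FPKM in AT, 1.35 in BL, 1.23 in SPL and 1.70 in BM LSC, against 1.17 in NBM. Srebf2, tied mainly to sterol synthesis, had 1.71 FPKM in AT, 2.07 in BL, 1.31 in SPL and 1.36 in BM LSC, against 2.03 in NBM. Scap, their escort protein, had 0.595 FPKM in AT, 0.338 in BL, 0.701 in SPL and 0.632 in BM LSC, against 0.685 in NBM, lowest in BL LSC. Insig1, which retains the Scap and SREBP complex and is itself an SREBP target, had 2.15 FPKM in AT, 1.21 in BL, 0.816 in SPL and 1.22 in BM LSC, against 1.43 in NBM, highest in AT LSC. The smallest of their q-values over the 10 comparisons was that of Insig1 in AT over SPL LSC, 1.40 ± 0.56 (q 0.0547) in the authors' deposited table. Insig1 passed after centring in AT over SPL (q 0.00544) and in AT over BM LSC (q 0.0321). SREBP activity is set by cleavage of the protein, which these RNA levels do not measure. Srebf1 shares 109 exonic bases with Rai1, and Scap 985 with 5830462I19Rik.

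Sterol transport and storage genes did not all move together. Stard4, which moves cholesterol between membranes and is a known SREBP2 target, had 1.19 FPKM in AT, 1.35 in BL, 3.90 in SPL and 3.65 in BM LSC, against 1.49 in NBM, so SPL and BM LSC stood above AT and BL LSC and NBM. Stard4 was, in the authors' deposited table, 3.26-fold lower (log2 -1.71 ± 0.53, q 0.0092) in AT than in SPL LSC, 3.05-fold lower (log2 -1.61 ± 0.46, q 0.0042) in AT than in BM LSC, 2.88-fold lower (log2 -1.53 ± 0.45, q 0.00611) in BL than in SPL LSC and 2.7-fold lower (log2 -1.43 ± 0.37, q 0.00134) in BL than in BM LSC. Only the last of these calls held after centring. It was 2.62-fold higher (log2 1.39 ± 0.45, q 0.0129) in SPL LSC and 2.45-fold higher (log2 1.29 ± 0.36, q 0.00364) in BM LSC than in NBM in the authors' deposited table, both also after centring. Soat1, which esterifies cholesterol for storage in droplets, had 5.09 FPKM in AT, 6.99 in BL, 2.28 in SPL and 2.93 in BM LSC, against 7.49 in NBM, with SPL and BM LSC lowest. In the authors' deposited table Soat1 was 3.07-fold higher (log2 1.62 ± 0.49, q 0.00724) in BL than in SPL LSC and 2.38-fold higher (log2 1.25 ± 0.37, q 0.00551) in BL than in BM LSC. It was 3.29-fold lower (log2 -1.72 ± 0.45, q 0.00149) in SPL LSC and 2.55-fold lower (log2 -1.35 ± 0.31, q 0.000264) in BM LSC than in NBM in the authors' deposited table, and these 4 calls held after centring. The AT folds of Soat1, 0.79 ± 0.43 over BM and 1.16 ± 0.54 over SPL in the authors' deposited table, were not called there. Both passed after centring, and the one over SPL also under total count scaling. Npc1 and Npc2, which hand cholesterol out of lysosomes, were not called in any comparison. Npc2 was among the most abundant of the 37 genes, with 34.2 FPKM in AT, 45.5 in BL, 30.3 in SPL and 24.6 in BM LSC, against 39.6 in NBM, and Npc1 had 1.69 FPKM in AT, 1.52 in BL, 0.868 in SPL and 1.24 in BM LSC, against 1.19 in NBM. Npc1 shares 511 exonic bases with Rmc1. Npc2 in BL over BM LSC, 0.88 ± 0.35 in the authors' deposited table, passed after centring and under total count scaling.

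All 4 genes of the LXR and export group had their highest level in AT LSC. Nr1h3 (mm10 chr2:91184061-91195116), LXR alpha, the receptor of macrophages, liver and fat, had 5.37 FPKM in AT, 3.94 in BL, 1.43 in SPL and 0.730 in BM LSC, against 1.57 in NBM. The AT bounds (2.70 to 8.04) lay above those of SPL (0.552 to 2.31), BM (0.394 to 1.06) and NBM (0.931 to 2.21), and the BL bounds (2.12 to 5.75) above those of BM only. Nr1h3 was, in the authors' deposited table, 7.36-fold higher (log2 2.88 ± 0.49, q 1.83e-07) in AT than in BM LSC, 3.76-fold higher (log2 1.91 ± 0.57, q 0.00667) in AT than in SPL LSC and 3.42-fold higher (log2 1.77 ± 0.46, q 0.0015) in AT LSC than in NBM. For BL LSC the authors' deposited table gave 5.4-fold higher (log2 2.43 ± 0.47, q 6.74e-06) values than in BM LSC, 2.75-fold higher (log2 1.46 ± 0.55, q 0.0416) than in SPL LSC and 2.51-fold higher (log2 1.33 ± 0.44, q 0.0178) than in NBM. All 6 Nr1h3 calls held after centring and under total count scaling. Nr1h2, LXR beta, the broadly expressed receptor, had 6.65 FPKM in AT, 6.29 in BL, 3.33 in SPL and 3.90 in BM LSC, against 4.88 in NBM. Its folds in AT and BL over BM and SPL LSC were between 0.69 ± 0.38 and 1.00 ± 0.52 in the authors' deposited table and were not called there. All 4 were called after centring, and AT over SPL also under total count scaling.

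Abcg1, which passes cholesterol to high density lipoprotein, was far more abundant than Abca1, which passes it to lipid-free apolipoprotein. Abcg1 (mm10 chr17:31057694-31117981) had 31.6 FPKM in AT, 26.5 in BL, 12.5 in SPL and 14.4 in BM LSC, against 8.28 in NBM, lowest in NBM. Abcg1 was, in the authors' deposited table, 3.81-fold higher (log2 1.93 ± 0.51, q 0.00154) in AT LSC, 3.21-fold higher (log2 1.68 ± 0.37, q 0.000118) in BL LSC and 1.75-fold higher (log2 0.80 ± 0.29, q 0.0323) in BM LSC than in NBM. The BM call was lost under total count scaling. SPL LSC over NBM, 0.60 ± 0.39 in the authors' deposited table, was not called. Between sites, AT over BM and AT over SPL stood at 1.13 ± 0.51 and 1.33 ± 0.57, and BL over BM and BL over SPL at 0.88 ± 0.38 and 1.08 ± 0.46 in the authors' deposited table, and none of the 4 was called there. All 4 were called after centring, and all but BL over BM under total count scaling. Abca1 had 0.150 FPKM in AT, 0.0711 in BL, 0.0989 in SPL and 0.117 in BM LSC, against 0.125 in NBM, a low level throughout, and was tested only in the 4 comparisons of AT LSC, where it was not called. The summed level of the 4 genes was 43.7 FPKM in AT, 36.8 in BL, 17.4 in SPL and 19.2 in BM LSC, against 14.8 in NBM. Beside this, 5 of 11 macrophage and monocyte markers were called higher and 0 lower in AT over BM LSC, against 7.24% and 15.5% of all tested genes. In BL over BM LSC 6 were higher and 1 lower, against 10.5% and 22.8% of all. Both pairs of counts were the same after centring, against 11.8% and 5.11% of all in AT over BM and 15.6% and 13.5% in BL over BM. In BM over NBM, where Abcg1 was called higher, 1 of the 11 markers was called higher and 7 lower, against 8.17% and 7.85% of all. What these markers contribute was not tested.

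Each call of a fatty acid gene was toward a lower level, mostly in AT and BL LSC and from synthase to desaturases, and neither of the 2 abundant elongases was called. All 10 genes had a fold below 0 in AT over BM and in AT over SPL LSC, where the median of all tested genes was also below 0. After centring, Acaca, Elovl1 and Elovl5 lay above 0 in AT over BM, at 0.23, 0.33 and 0.06, and Elovl1 in AT over SPL, at 0.02. Acly, which makes cytosolic acetyl-CoA, had 9.97 FPKM in AT, 14.4 in BL, 16.8 in SPL and 14.5 in BM LSC, against 18.3 in NBM, and was not called in any comparison. Acaca, acetyl-CoA carboxylase, had 0.347 FPKM in AT, 0.275 in BL, 0.835 in SPL and 0.410 in BM LSC, against 0.516 in NBM, and was called for BL over SPL LSC only, 3.04-fold lower (log2 -1.60 ± 0.48, q 0.00681) in the authors' deposited table, a call lost after centring. A copy of Acaca, Gm5182, is 99.2% identical over 64.3% of its transcript. Fasn, fatty acid synthase, had 0.775 FPKM in AT, 0.693 in BL, 1.57 in SPL and 1.44 in BM LSC, against 1.70 in NBM. Fasn was, in the authors' deposited table, 2.45-fold lower (log2 -1.29 ± 0.38, q 0.00523) in BL LSC and 2.19-fold lower (log2 -1.13 ± 0.44, q 0.0496) in AT LSC than in NBM, and 2.08-fold lower (log2 -1.05 ± 0.38, q 0.0277) in BL than in BM LSC, and none of the 3 calls held after centring.

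The desaturases carried the lowest folds. Scd2 (mm10 chr19:44293676-44306862), a stearoyl-CoA desaturase, which makes monounsaturated fatty acids, had 1.27 FPKM in AT, 2.00 in BL, 7.86 in SPL and 8.67 in BM LSC, against 8.02 in NBM. The bounds of AT (0.602 to 1.95) and BL LSC (1.21 to 2.79) lay below those of SPL (3.84 to 11.9), BM (6.03 to 11.3) and NBM (5.75 to 10.3). In the authors' deposited table Scd2 was 6.8-fold lower (log2 -2.77 ± 0.44, q 1.97e-08) in AT than in BM LSC, 6.17-fold lower (log2 -2.62 ± 0.53, q 1.91e-05) in AT than in SPL LSC and 6.29-fold lower (log2 -2.65 ± 0.43, q 4.49e-08) in AT LSC than in NBM. For BL LSC the authors' deposited table gave 4.34-fold lower (log2 -2.12 ± 0.36, q 1.88e-07) values than in BM LSC, 3.93-fold lower (log2 -1.98 ± 0.47, q 0.000347) than in SPL LSC and 4.01-fold lower (log2 -2.00 ± 0.35, q 4.37e-07) than in NBM. All 6 Scd2 calls held after centring and under total count scaling. Scd1, its neighbour on chromosome 19, had 0.473 FPKM in AT, 0.411 in BL, 1.65 in SPL and 1.14 in BM LSC, against 1.24 in NBM. The same 6 comparisons were called lower for Scd1, with folds from -1.26 ± 0.49 (q 0.0458) in AT over BM to -2.00 ± 0.50 (q 0.000906) in BL over SPL LSC in the authors' deposited table, and the 3 with AT LSC were lost after centring. Scd1 and Scd2 transcripts are 95.5% identical over 623 bases, 11.4% of Scd2, so a small share of reads may be exchanged.

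Fads1 and Fads2 add double bonds in the making of polyunsaturated fatty acids. Fads1 had 0.627 FPKM in AT, 0.465 in BL, 1.67 in SPL and 1.88 in BM LSC, against 2.26 in NBM, with AT bounds (0.238 to 1.02) and BL bounds (0.252 to 0.679) below those of BM (1.23 to 2.53) and NBM (1.41 to 3.11). Fads1 was, in the authors' deposited table, 4.85-fold lower (log2 -2.28 ± 0.43, q 3.24e-06) in BL LSC than in NBM, 4.04-fold lower (log2 -2.02 ± 0.41, q 2.93e-05) in BL than in BM LSC and 3.58-fold lower (log2 -1.84 ± 0.50, q 0.00224) in BL than in SPL LSC. For AT LSC the authors' deposited table gave 3.6-fold lower (log2 -1.85 ± 0.52, q 0.00383) values than in NBM and 3-fold lower (log2 -1.58 ± 0.51, q 0.0138) than in BM LSC, and the last was lost after centring. Fads2 had 0.281 FPKM in AT, 0.168 in BL, 0.803 in SPL and 0.597 in BM LSC, against 1.59 in NBM, highest in NBM. These levels rest on few reads, with 35 estimated counts in AT, 17 in BL, 31 in SPL and 49 in BM LSC, against 161 in NBM. The lowest fold of any member in the authors' deposited table was that of Fads2 in BL over NBM, 9.51-fold lower (log2 -3.25 ± 0.55, q 1.61e-07), next to which AT LSC were 5.66-fold lower (log2 -2.50 ± 0.63, q 0.000932) and BM LSC 2.67-fold lower (log2 -1.42 ± 0.47, q 0.017) than NBM. These 3 calls held after centring. Between sites Fads2 was 4.79-fold lower (log2 -2.26 ± 0.65, q 0.00467) in BL than in SPL LSC and 3.56-fold lower (log2 -1.83 ± 0.58, q 0.0121) in BL than in BM LSC in the authors' deposited table, and only the call against SPL held after centring.

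Elongases differed by member. Elovl6, which lengthens palmitate, had 0.489 FPKM in AT, 0.415 in BL, 1.62 in SPL and 1.21 in BM LSC, against 1.88 in NBM. It was, in the authors' deposited table, 4.53-fold lower (log2 -2.18 ± 0.40, q 1.64e-06) in BL LSC and 3.85-fold lower (log2 -1.94 ± 0.49, q 0.00101) in AT LSC than in NBM, and 3.9-fold lower (log2 -1.97 ± 0.47, q 0.000429) in BL than in SPL LSC. The remaining site folds were -1.73 ± 0.55 (q 0.0123) in AT over SPL, -1.54 ± 0.40 (q 0.00144) in BL over BM and -1.31 ± 0.50 (q 0.0419) in AT over BM LSC in the authors' deposited table. The calls of AT over SPL and AT over BM were lost after centring. Elovl1, the elongase of very long saturated chains, had 24.6 FPKM in AT, 27.9 in BL, 34.7 in SPL and 27.3 in BM LSC, against 26.3 in NBM, and Elovl5, the elongase of polyunsaturated chains, had 16.7 FPKM in AT, 29.2 in BL, 24.3 in SPL and 22.3 in BM LSC, against 24.0 in NBM. Neither was called in any comparison. The summed level of the 10 genes was 55.5 FPKM in AT, 76.0 in BL, 91.8 in SPL and 79.4 in BM LSC, against 85.8 in NBM, and Elovl1, Elovl5 and Acly made up most of it. Beside the lower enzyme and desaturase levels, 0 of 12 cell cycle markers were called higher and 7 lower in AT over BM LSC, where 15.5% of all tested genes were called lower. Centring and total count scaling each left 3 lower, against 5.11% and 7.52% of all. In BL over BM LSC 0 were higher and 11 lower, or 10 lower after centring, against 22.8% and 13.5% of all. In AT over BL LSC 7 of the 12 were called higher and 0 lower, against 4.01% and 2.51% of all. There 0 of the 37 members were called. Whether the lipid genes moved with the share of dividing cells was not tested.

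**Figure D3:**
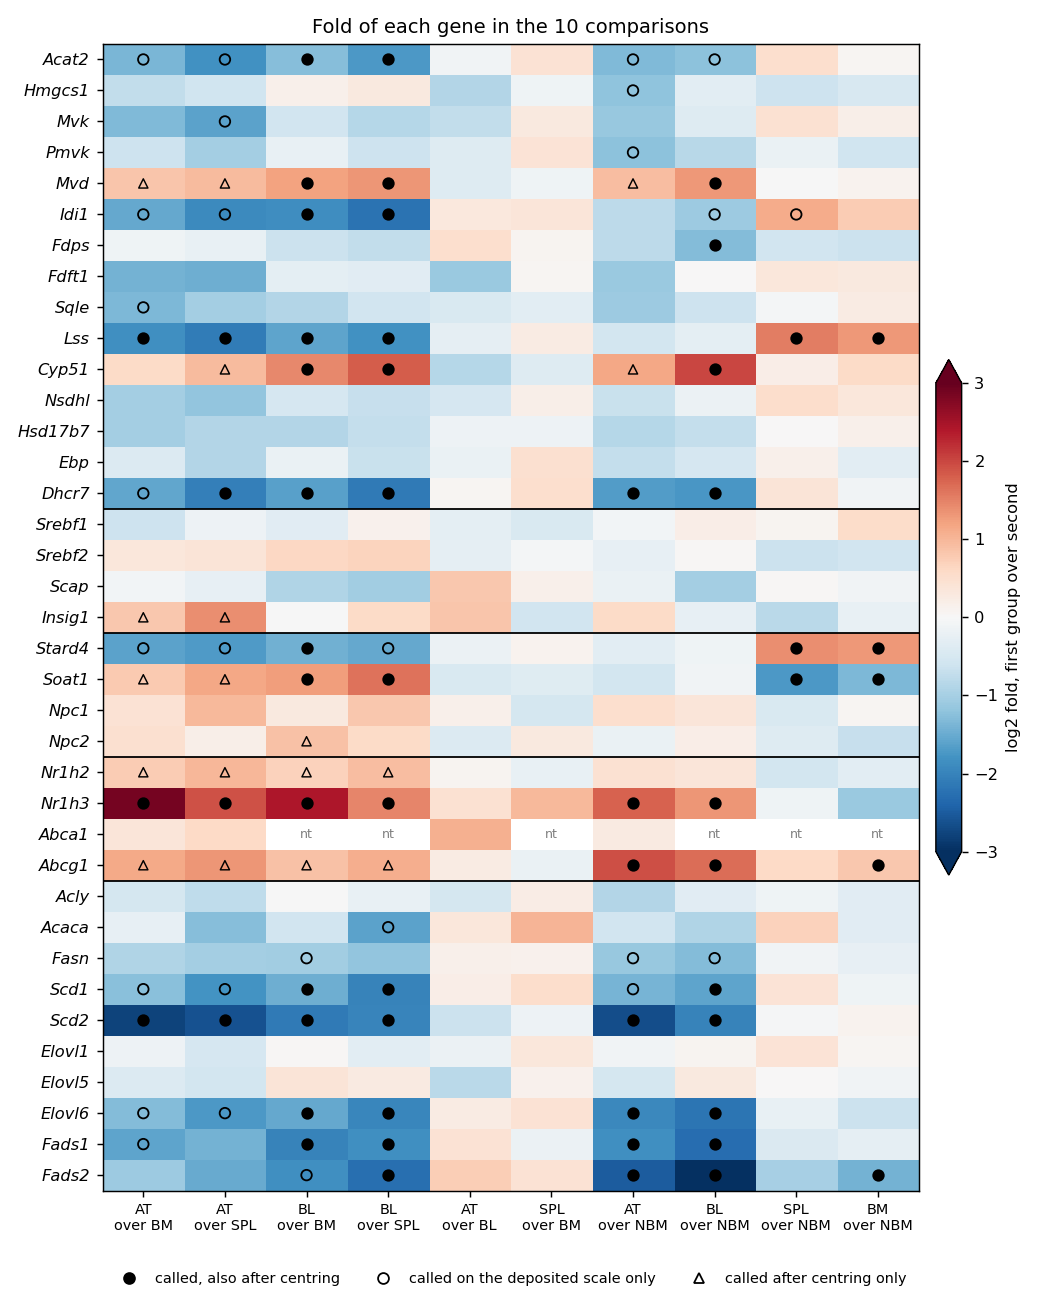
Authors' log2 fold (color, clipped at 3 in each direction) of the 37 genes in the 10 comparisons, first group over second. Filled circles mark calls at q below 0.05 that also passed after centring, open circles calls on the deposited scale only, triangles calls after centring that the deposited scale lacked, and nt genes the authors did not test. Scd2 and Nr1h3 have filled circles in all 6 comparisons of AT or BL LSC with BM, SPL and NBM.

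Counted over the members, the balance between higher and lower depended on the scaling, and counts are read against the share of all tested genes called. In AT over BM LSC, 1 of 37 members was called higher and 10 lower, where 7.24% of all tested genes were called higher and 15.5% lower. After centring, 6 were higher and 2 lower, against 11.8% and 5.11% of all, and under total count scaling 2 were higher and 5 lower, against 9.93% and 7.52%. The 2 lower members left by centring were Lss and Scd2. In AT over SPL LSC, 1 member was higher and 9 lower of 37, against 7.2% and 17.9% of all tested genes. Centring and total count scaling both turned this to 7 higher and 3 lower, against 11.5% and 6.95% with the first and 11.8% and 6.91% with the second. Lss, Dhcr7 and Scd2 were the 3 lower genes there.

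In the comparisons of BL LSC, lower calls outnumbered higher ones on the deposited scale and after centring. In BL over BM LSC, 4 of 36 members tested were higher and 11 lower, against 10.5% and 22.8% of all tested genes, and after centring 7 were higher and 9 lower, against 15.6% and 13.5%. In BL over SPL LSC, 4 of 36 were higher and 11 lower, against 10.2% and 23.1%, and after centring 6 were higher and 9 lower, against 14.9% and 14.5%. Mvd, Cyp51, Soat1 and Nr1h3 were the 4 higher genes in both. BL over BM and BL over SPL share the BL libraries, as AT over BM and AT over SPL share the AT libraries, so these counts are not independent.

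No member was called between AT and BL LSC or between SPL and BM LSC. In AT over BL LSC the Cuffdiff q-values called 0 of 37 members, and so did centring and total count scaling, where 4.01% of all tested genes were called higher and 2.51% lower, or 4.39% and 1.65% after centring. At an unadjusted p below 0.05 there were 0 members on the deposited scale, 2 after centring (Insig1 and Abca1) and 3 under total count scaling (Scap, Insig1 and Abca1). In SPL over BM LSC the Cuffdiff q-values likewise called 0 of 36, as did both scalings, against 1.19% and 1.5% of all tested genes and 0.905% and 1.89% after centring. There the unadjusted p was below 0.05 for 1 member, Acaca, on the deposited scale and after centring, and for 0 under total count scaling. Standard errors of the log2 folds had a median of 0.525 in AT over BL and 0.478 in SPL over BM. Changes of the size of 1 error would therefore not have been called, and larger ones also went uncalled. Abca1 in AT over BL was 2.11-fold higher (q 0.2) and Acaca in SPL over BM 2.04-fold higher (q 0.0973) in the authors' deposited table.

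Against normal counterparts, the genes lower in AT and BL LSC were mostly fatty acid genes. In SPL and BM LSC few members were called, as were few of all tested genes. In AT over NBM, 2 of 37 members were higher and 10 lower, against 7.94% and 15.5% of all tested genes. After centring 4 were higher and 5 lower, against 12.4% and 6.56%, and under total count scaling 3 and 5, against 10.2% and 9.63%. The 5 lower genes under both scalings were Dhcr7, Scd2, Elovl6, Fads1 and Fads2. In BL over NBM, 4 of 36 were higher and 10 lower, against 11.5% and 22.9%, and after centring 4 and 7, against 16.6% and 14%. In SPL over NBM, 3 of 36 were higher (Idi1, Lss and Stard4) and 1 lower (Soat1), against 6.37% and 6.19%. After centring these were 2 and 1, against 5.54% and 6.75%, and under total count scaling 1 and 1, against 4.69% and 8.29%. In BM over NBM, 3 of 36 were higher (Lss, Stard4 and Abcg1) and 2 lower (Soat1 and Fads2), against 8.17% and 7.85%, with the same counts after centring, against 8.2% and 7.35%. Under total count scaling 2 were higher and 4 lower, against 7.6% and 8.22%. All 4 comparisons share the NBM libraries.

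**Figure D4:**
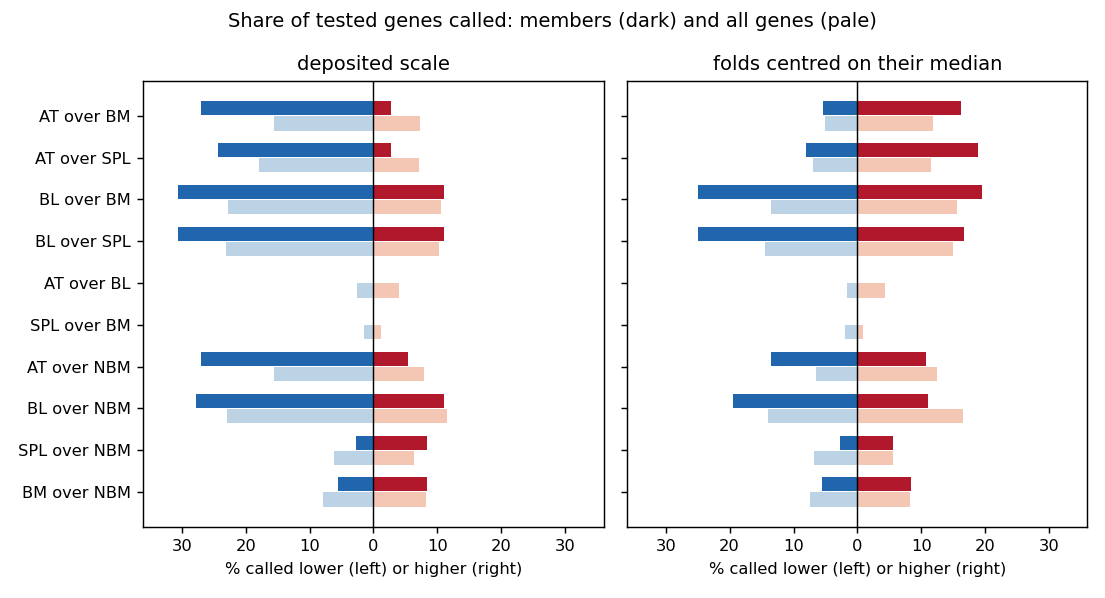
Share of members (dark bars, upper of each pair) and of all tested genes (pale bars, lower of each pair) called higher (right, red) or lower (left, blue) in each comparison, on the deposited scale and after centring. For AT LSC over BM LSC the members go from 10 lower and 1 higher to 2 lower and 6 higher.

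By role, the group medians were as follows. The 15 sterol enzymes had a median log2 fold of -1.02 in AT over BM and -0.58 in BL over BM LSC, beside medians of -0.48 and -0.37 over all tested genes. The 10 fatty acid genes had -0.99 and -1.26 in the same comparisons. The LXR and export genes had 0.95 over 4 genes in AT over BM and 0.88 over 3 in BL over BM LSC. Over NBM, the fatty acid genes had a median of -1.26 in AT and -1.44 in BL LSC, but -0.07 in SPL and -0.25 in BM LSC. All medians come from the folds of the authors' deposited table.

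Other genes of these pathways, from lists set apart from the 37, gave a mixed account. Of 19 further sterol synthesis and SREBP pathway genes tested in AT over BM LSC, 0 were called higher and 2 lower, beside 7.24% and 15.5% of all tested genes, and 0 in either direction after centring. In BL over BM LSC 1 was higher and 1 lower on both scales, beside 10.5% and 22.8% of all on the deposited scale. Erlin2, which takes part in the degradation of sterol sensors, was 2.66-fold lower (log2 -1.41 ± 0.42, q 0.00666) in AT than in BM LSC in the authors' deposited table, and not after centring. Acss2, which makes acetyl-CoA from acetate, had 0.312 FPKM in AT, 0.583 in BL, 0.697 in SPL and 0.778 in BM LSC, against 0.128 in NBM, and was 6.09-fold higher (log2 2.60 ± 0.51, q 8.55e-06) in BM, 5.45-fold higher (log2 2.45 ± 0.59, q 0.00048) in SPL and 4.56-fold higher (log2 2.19 ± 0.53, q 0.000512) in BL LSC than in NBM in the authors' deposited table.

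Of 19 further LXR target and sterol handling genes tested in AT over BM LSC, 4 were called higher and 1 lower, beside 7.24% and 15.5% of all tested genes, or 7 and 0 after centring, beside 11.8% and 5.11%. In BL over BM LSC the counts were 6 and 1 of 19, beside 10.5% and 22.8% of all, or 6 and 0 after centring, beside 15.6% and 13.5%. In BM over NBM they were 0 and 6 of 21, beside 8.17% and 7.85% of all, or 0 and 5 after centring, beside 8.2% and 7.35%. Lrp1, a lipoprotein receptor, had 1.85 FPKM in AT, 2.73 in BL, 0.251 in SPL and 0.371 in BM LSC, against 0.508 in NBM. Lrp1 was, in the authors' deposited table, 7.37-fold higher (log2 2.88 ± 0.39, q 2.8e-11) in BL and 4.99-fold higher (log2 2.32 ± 0.47, q 2.23e-05) in AT than in BM LSC. Cyp7b1, the oxysterol hydroxylase, was listed at 0 in AT LSC and had 0.0252 FPKM in BL, 0.0965 in SPL and 0.135 in BM LSC, against 1.82 in NBM. It was 13.5-fold lower (log2 -3.75 ± 0.56, q 1.81e-09) in BM LSC than in NBM in the authors' deposited table. Vldlr, another lipoprotein receptor, had 0.00659 FPKM in AT, 0.00345 in BL, 0.00365 in SPL and 0.0257 in BM LSC, against 0.312 in NBM, and was 12.1-fold lower (log2 -3.60 ± 0.61, q 1.68e-07) in BM LSC than in NBM in the authors' deposited table. Ch25h, cholesterol 25-hydroxylase, which makes the LXR ligand 25-hydroxycholesterol, had 0.799 FPKM in AT, 0.0983 in BL, 0.550 in SPL and 0.217 in BM LSC, against 0.360 in NBM, and was called in AT over BL LSC with 1 other gene of the list, 8.13-fold higher (log2 3.02 ± 0.79, q 0.00156) in AT in the authors' deposited table.

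Of 21 further fatty acid synthesis genes tested in AT over BM LSC, 0 were called higher and 5 lower, beside 7.24% and 15.5% of all tested genes, or 1 and 3 after centring, beside 11.8% and 5.11%. In BL over BM LSC 1 was higher and 5 lower of 18, beside 10.5% and 22.8% of all, or 1 and 2 after centring, beside 15.6% and 13.5%. Scd3 and Scd4, desaturases of the same gene cluster as Scd1 and Scd2, followed the order of Scd2 across the 5 groups. Scd3 had 0.357 FPKM in AT, 0.471 in BL, 1.44 in SPL and 1.56 in BM LSC, against 1.47 in NBM. Scd4 had 0.302 FPKM in AT, 0.404 in BL, 1.32 in SPL and 1.46 in BM LSC, against 1.43 in NBM. In the authors' deposited table Scd4 was 4.85-fold lower (log2 -2.28 ± 0.54, q 0.000347) in AT than in BM LSC, and Scd3 was 4.37-fold lower (log2 -2.13 ± 0.51, q 0.000498) there. Mcat, the malonyl transferase of mitochondrial fatty acid synthesis, had 0.0488 FPKM in AT, 0.217 in BL, 0.516 in SPL and 0.519 in BM LSC, against 1.11 in NBM, and was 22.8-fold lower (log2 -4.51 ± 0.94, q 3.57e-05) in AT LSC than in NBM in the authors' deposited table. Me1, malic enzyme, which supplies NADPH for lipid synthesis, had 0.222 FPKM in AT, 0.280 in BL, 0.446 in SPL and 0.517 in BM LSC, against 0.0384 in NBM, and was 13.5-fold higher (log2 3.75 ± 0.64, q 2.52e-07) in BM and 11.6-fold higher (log2 3.54 ± 0.71, q 1.51e-05) in SPL LSC than in NBM in the authors' deposited table. Elovl7, an elongase of saturated chains, had 0.319 FPKM in AT, 0.468 in BL, 0.271 in SPL and 0.324 in BM LSC, against 0.0916 in NBM, and was 5.1-fold higher (log2 2.35 ± 0.49, q 3.99e-05) in BL LSC than in NBM in the authors' deposited table. Ch25h, Scd3 and Scd4 were named after their values were seen.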

How the data were processed

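Per the labels' protocols, Qiagen RNeasy Plus was used to extract total RNA, from which low-input libraries were made with Clontech SMARTer chemistry and Illumina Nextera XT. Per the submitters' processing notes, Trimmomatic 0.32, Cufflinks 2.0.2 and Cuffdiff were used on mm10; for the aligner and gene annotation, the sources used here name none. In the tracking tables the authors deposited 1 pooled FPKM per gene and group with bounds, and 1 estimated count per gene and group. For each pair of groups the authors deposited a log2 fold and a test statistic, treated as scores, with a p-value and a q-value; the q-values equal a Benjamini-Hochberg adjustment over all 10 comparisons. All columns are pooled over a group, so the planned test of counts per library was replaced by the authors' Cuffdiff tests, and no SD over libraries can be given.

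The 37 members and the lists of other pathway genes and markers were chosen with earlier results of these data known. Standard errors were taken as fold over test statistic and were within 1% of those from the bounds for 99.6% or more of tested genes in each comparison. Folds were recomputed after centring on the median of tested genes and after scaling to equal totals of estimated counts, with Benjamini-Hochberg adjustment over the 10 comparisons, and this step was tested on simulated data. Alternatives also adjusted within each comparison, kept genes at 1 FPKM or more, left out 105 merged entries and 152 genes with conflicting FPKM (0 members among them), and used log2(FPKM + 1). By rule, up to 12 called members with the smallest q-values were named in a comparison; the few called beyond 12 in the comparisons of BL LSC are given too. Up to 3 genes of each pathway list were named by smallest q-value. A gene that this rule picks is not reported here. Gene overlaps and similar transcripts were found in GENCODE M21, and promoters came from RefSeq (GRCm38.p6). Python 3.11.15, pandas 2.3.3, numpy 2.4.6 and scipy 1.17.1 were used.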

Additional observations from a re-analysis of the deposited data

How the results depend on the processing

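Scaling decided more calls than any other choice. After centring, members called higher numbered 6 in AT over BM, 7 in AT over SPL, 7 in BL over BM and 4 in AT over NBM, and members called lower 2 in AT over BM, 3 in AT over SPL and 5 in AT over NBM. Under total count scaling, 2 were higher and 5 lower in AT over BM, 7 and 3 in AT over SPL, 5 lower in AT over NBM, 1 higher in SPL over NBM and 4 lower in BM over NBM. The cause was not tested. Adjustment within the comparison, and likewise a minimum of 1 FPKM in 1 of the 2 groups, gave 2 higher in AT over SPL. No member was among the merged or conflicting entries, so leaving these out could move member counts only through the adjustment of p-values. Of group medians, centring, a choice added after seeing the data, gave -0.55 for sterol synthesis and -0.51 for fatty acid synthesis in AT over BM and -0.21 for sterol synthesis in BL over BM, and total count scaling, also added, gave -0.49 for sterol synthesis in AT over SPL. With log2(FPKM + 1), which shrinks folds of low genes by construction, the fatty acid medians were -0.48 in AT over BM, -0.62 in AT over SPL, -0.49 in BL over BM, -0.62 in BL over SPL, -0.71 in AT over NBM and -0.67 in BL over NBM, and the sterol export median was 0.94 in BL over NBM. With a minimum of 1 FPKM, fewer genes remained, and the fatty acid median in AT over BL was -0.59 in place of 0.18 and the sterol export median in AT over NBM 1.77.

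No paired analysis was possible because the deposited columns are pooled over the libraries of a group, and for the same reason leaving out each library in turn was not run. Precision is limited by 3 libraries a group and, for SPL LSC, by 8.96e+06 estimated counts, so a gene not called is not shown to be unchanged.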
